A study of Mus musculus with 8 samples.

Results

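The mitochondrial ribosomal proteins of the mouse left ventricle are described here, as their mRNAs were measured by RNA-seq in a mouse model of dilated cardiomyopathy. When the set of genes was chosen, earlier results of these data were known. By name, every gene was taken whose symbol begins with Mrpl (large subunit) or Mrps (small subunit) followed by a number. Rows named as pseudogenes were left out. That gave 78 of the 55385 genes in the table, 49 of the large subunit and 29 of the small, and all 78 passed the filter on low counts.

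Mitochondria keep a ribosome of their own in the matrix, which makes only the few proteins encoded by mitochondrial DNA, all of them core parts of respiratory chain complexes or ATP synthase. Its RNA is transcribed from mitochondrial DNA, while every one of its proteins is encoded in the nucleus, made on cytosolic ribosomes and imported. Heart muscle, which draws most of its ATP from respiration, is among the tissues with the highest demand for this ribosome.

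The 8 libraries came from left ventricle of male mice of the C57BL6 strain. Of these, 4 were from mice carrying an Mst1 transgene (Mst1-TG, labelled with experimental dilated cardiomyopathy) and 4 from non-transgenic littermates (WT). The transgene encodes the Hippo pathway kinase known in mouse as Stk4 and is driven by the alpha-myosin heavy chain promoter, so its expression is meant to be limited to cardiomyocytes. The mice were 3 weeks old by the design text of the series, although the RNA protocol in the labels gives 3 months and the growth protocol names both young mice (3 weeks) and adults (5.5 months). The strain description also mentions mice with a deletion of the galectin-3 gene, and no library used here carries that genotype in its label. The labels do not state that each numbered sample is another animal, and the p-values then cover only the variation among the samples as deposited.

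Levels are in CPM, estimated counts brought to a common library size with TMM factors, and are listed by library or as mean ± SD (n = 4 in each group). Log2 fold changes compare Mst1-TG with WT and carry their standard errors, and a gene is said to fall or rise where the edgeR quasi-likelihood test gave a Benjamini-Hochberg adjusted p below 0.05 over the 15314 genes tested. The mean level of Stk4 was 27.2 ± 1.88 CPM in WT against 1608 ± 130.3 CPM in the transgenic hearts, and the lowest Mst1-TG library (1449) lay far above the highest WT library (29.6). Library depth ran from 21193536 to 23809256 counts. Mitochondrially encoded genes took 22.9 ± 1.11% of the counts in WT and 13.6 ± 0.676% in Mst1-TG (p = 0.0286 in a two-sided exact permutation test, the lowest value possible with 4 against 4). Where libraries were scaled by their totals alone the median of all genes moved from 0.01 to 0.29 on the log2 scale. Of the cell type markers, 8 of 8 for fibroblasts were higher (summed CPM 2580 to 3437 in WT, 6187 to 8613 in Mst1-TG) and 6 of 8 for cardiomyocytes were lower (45821 to 53930 in WT, 30313 to 39897 in Mst1-TG), while 0 of 7 tested for leukocytes passed (202 to 286 in WT, 225 to 292 in Mst1-TG). Of the other lists, 4 of 8 endothelial markers were lower (2531 to 3163 in WT, 1777 to 2877 in Mst1-TG), and of 8 pericyte and smooth muscle markers 4 were lower and 1 higher (2037 to 2327 in WT, 1425 to 1649 in Mst1-TG). Of 8 skeletal muscle markers 4 were tested, with 2 lower and 1 higher (2072 to 2522 in WT, 609 to 827 in Mst1-TG). Those below 1 CPM were Myh1, Myh4 (0 in all libraries), Mylpf, Actn3 and Atp2a1, so the sums came mostly from the others. Of 5 atrial markers 3 were lower and 1 higher. Their sums (326 to 397 in WT, 5157 to 7319 in Mst1-TG) came mostly from Nppa (a mean of 218 and 6084). None of 7 erythroid markers passed (5863 to 14926 and 3597 to 7663). Over all genes tested, beside these marker counts, 21.1% were lower and 21.2% higher, 42.3% in either direction. None of the fibroblast or cardiomyocyte markers was at 0. The part of these shifts in the results below was not tested, and in a bulk sample fewer cells of a type and less RNA per cell cannot be told apart.

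Nearly the whole set was lower in the Mst1-TG hearts. Of the 78 genes 72 fell, none rose and 6 did not pass. Among all genes tested 21.1% fell and 21.2% rose, 42.3% in either direction. The median log2 fold change over the 78 was −0.61, with quartiles of −0.82 and −0.44, beside a median of 0.01 and quartiles of −0.27 and 0.29 over all genes tested. In 71 of the 78 every Mst1-TG library lay below every WT library, which was so for 20.1% of all genes tested. The reverse held for none of the 78 and for 20.2% of all genes. The falls were moderate in size: 5 of the 78 reached 2-fold, beside 4.6% of all genes tested, and the range ran from −1.26 to −0.02. The spread of the fold changes among the 78 (SD 0.27) was wider than the standard error of any one of them (0.05 to 0.15, median 0.08).

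The summed CPM of the 78 was 3945, 4190.2, 3929 and 3948 in WT 1 to 4 and 2615, 2446, 2399 and 2737 in Mst1-TG 1 to 4. The groups did not overlap, and the mean sum in Mst1-TG was 0.637 of that in WT. As a plain share of all counts, with no scaling factor, the set took 0.362 ± 0.0108% in WT and 0.281 ± 0.0161% in Mst1-TG. As a share of the counts from nuclear genes it took 0.470 ± 0.0138% and 0.325 ± 0.0187%.

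**Figure D1:**
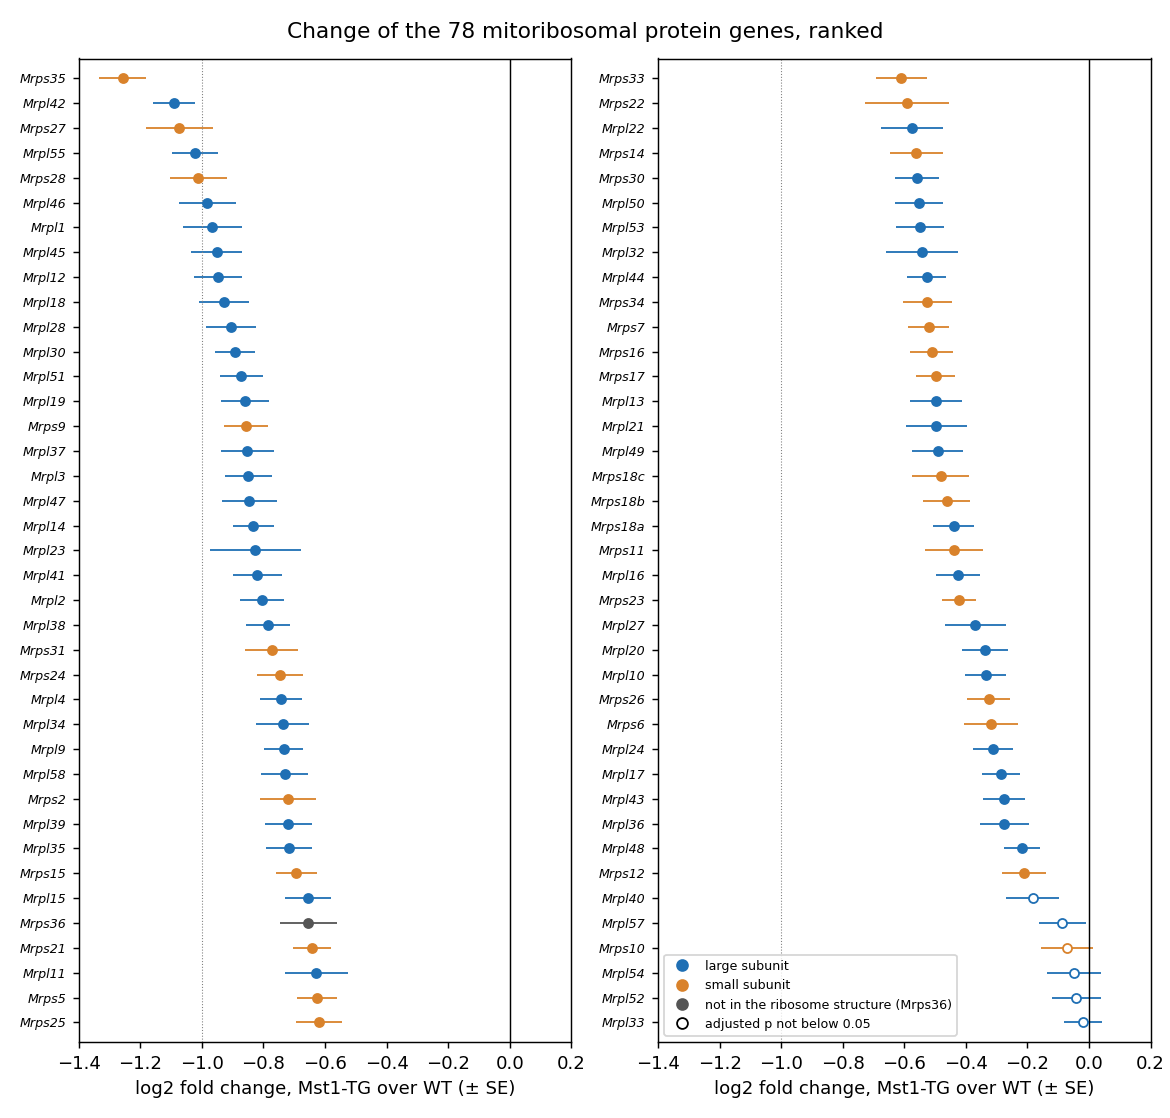
Log2 fold change (Mst1-TG over WT, with its standard error) of the 78 mitochondrial ribosomal protein genes, ordered from the largest fall to the smallest and coloured by subunit. The points run without a break from Mrps35 at −1.26 to Mrpl33 at −0.02, and none lies above 0.

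The largest fall was that of Mrps35, a protein of the small subunit found in mitochondrial but not in bacterial ribosomes (chr6:147042764-147073991, plus strand, GRCm38). Its level was 67.9, 80.2, 72.3 and 71.3 CPM in WT 1 to 4 and 30.2, 29.9, 27.9 and 34.0 CPM in Mst1-TG 1 to 4. All 4 Mst1-TG libraries were below the lowest WT library, with a mean at 41.8% of the WT mean (log2 fold change −1.26 ± 0.08, edgeR adjusted p = 5.9e-08).

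Mrpl42, likewise without a bacterial counterpart (chr10:95480805-95501940, minus strand), was the most abundant of the set in WT. It stood at 197, 215, 189 and 196 CPM in WT and 95.9, 92.3, 86.5 and 99.9 CPM in Mst1-TG libraries 1 to 4. The groups lay far apart, and the difference was −1.09 ± 0.07 (edgeR adjusted p = 6.7e-08). Mrps27 encodes a small-subunit protein with pentatricopeptide repeats, a fold that binds RNA (chr13:99344786-99415562, plus strand). Its level was 40.5, 55.5, 47.8 and 45.6 CPM in WT and 25.0, 22.5, 18.6 and 23.9 CPM in Mst1-TG. The gap between the groups was wide here too (−1.07 ± 0.11, edgeR adjusted p = 5.4e-06), although WT 1 was lower than the other 3 WT libraries.

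The other 2 genes past 2-fold were Mrpl55 and Mrps28. Mrpl55 belongs to the central protuberance, the knob of the large subunit that faces the small one. It went from 50.4, 58.7, 53.9 and 53.7 CPM in WT to 26.8, 26.4, 24.0 and 29.5 CPM in Mst1-TG (−1.02 ± 0.08, edgeR adjusted p = 2.6e-07). Mrps28, the counterpart of bacterial S1, stood at 40.2, 41.7, 40.6 and 40.4 CPM in WT and 21.7, 18.3, 17.2 and 23.7 CPM in Mst1-TG (−1.01 ± 0.09, edgeR adjusted p = 1.8e-06). For both genes the groups were separate, and the 4 WT libraries of Mrps28 lay close together.

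Next in size among the large-subunit genes were Mrpl46, another protuberance protein (−0.98 ± 0.09, from 27.5 to 13.9 CPM), Mrpl1, the protein of the stalk through which spent tRNA leaves (−0.97 ± 0.10, from 28.2 to 14.4 CPM), and Mrpl45, which holds the ribosome to the inner membrane near the tunnel exit (−0.95 ± 0.08, from 51.7 to 26.7 CPM). Among the small-subunit genes they were Mrps9, conserved in all ribosomes (−0.86 ± 0.07, from 58.0 to 32.0 CPM), and Mrps31, specific to mitochondria (−0.77 ± 0.08, from 32.4 to 18.9 CPM). In each of these 5 the lowest WT library was above the highest Mst1-TG library.

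At the other end of the range, 6 genes did not pass the test. Mrpl33, the counterpart of bacterial L33 (chr5:31596935-31664384, plus strand), stood at 59.3, 61.4, 60.6 and 65.5 CPM in WT 1 to 4 and 61.5, 60.9, 56.8 and 64.1 CPM in Mst1-TG 1 to 4. The libraries of the groups were interleaved, with a log2 fold change of −0.02 ± 0.06 (edgeR adjusted p = 0.83).

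Mrpl52 (chr14:54426909-54429756, plus strand) and Mrpl54, mitochondria-specific proteins of the large subunit, also had overlapping groups. Mrpl52 stood at 29.9, 29.5, 26.9 and 25.4 CPM in WT and 28.9, 24.4, 27.0 and 28.1 CPM in Mst1-TG (−0.04 ± 0.08, edgeR adjusted p = 0.71). Mrpl54 was at 33.9, 41.0, 34.4 and 33.5 CPM in WT and 35.4, 30.2, 34.1 and 38.2 CPM in Mst1-TG (−0.05 ± 0.09, edgeR adjusted p = 0.69). Libraries of the groups were interleaved for Mrpl52, and for Mrpl54 the WT 2 library stood above the other 7.

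Mrps10, a protein of the head of the small subunit that all ribosomes share, was the one Mrps gene that did not pass. It stood at 19.2, 22.3, 19.3 and 19.8 CPM in WT and 19.1, 19.6, 17.3 and 20.7 CPM in Mst1-TG (−0.07 ± 0.08, edgeR adjusted p = 0.53). The remaining 2 were Mrpl57, specific to mitochondria (−0.09 ± 0.08, edgeR adjusted p = 0.39), and Mrpl40 of the central protuberance (−0.18 ± 0.08, edgeR adjusted p = 0.10). Both overlapped between the groups. With libraries scaled by their totals alone, 52 of the 78 fell (10.4% of all genes did) and 5 of these 6, all but Mrpl40, rose (48.4% of all genes did). On that scale too, all 78 lay below the median of all genes. The 20 falls that lost their call there included those of Mrpl10, Mrpl27, Mrpl32, Mrps11, Mrps12, Mrps18a, Mrps18b, Mrps18c and Mrps26.

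The contrast within the set could be read without any scaling, as a ratio of counts inside each library. The ratio of Mrps35 to Mrpl33 was 1.15, 1.31, 1.19 and 1.09 in WT 1 to 4 and 0.491, 0.491, 0.491 and 0.530 in Mst1-TG 1 to 4. The groups lay apart, with a Mst1-TG mean at 0.423 of the WT mean, and the 4 Mst1-TG libraries were nearly alike. Mrpl42 over Mrpl33 was 3.24 ± 0.225 in WT and 1.54 ± 0.0231 in Mst1-TG, and Mrps27 over Mrps10 was 2.34 ± 0.179 in WT and 1.17 ± 0.0965 in Mst1-TG. These genes were picked as the ends of the range, so the ratios describe the spread and carry no test.

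**Figure D2:**
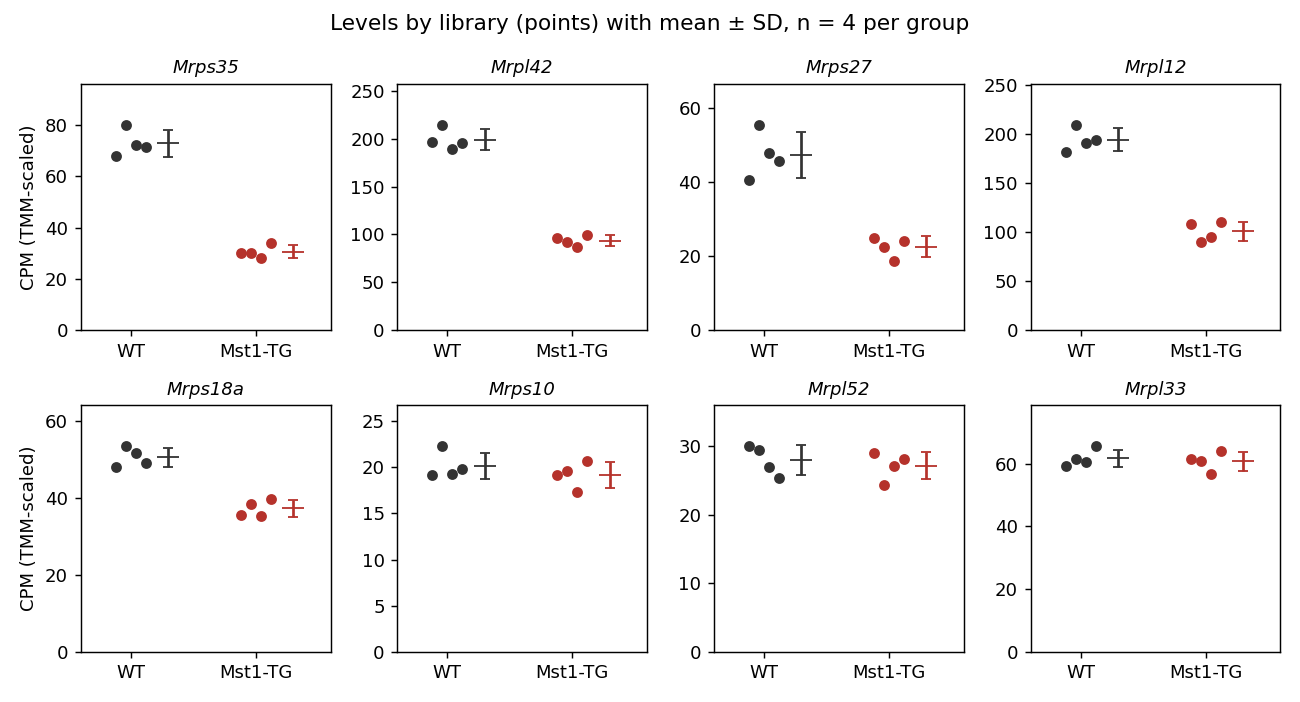
CPM of 8 members in each library, with a point for each of the 4 WT and 4 Mst1-TG libraries and a bar for each group mean ± SD, on axes that start at 0. For Mrps35, Mrpl42, Mrps27, Mrpl12 and Mrps18a the Mst1-TG points lie below all WT points, while for Mrps10, Mrpl52 and Mrpl33 the groups overlap.

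Promoter sequence was available for members from both ends of this range. The windows shown are RefSeq's (GRCm38.p6), with 250 bases before and 50 after the annotated start, for 2 genes that did not pass and 2 of the largest falls. Capitals mark exact matches, on either strand, to CCGGAAGT (the ETS motif bound by GABP, read as ACTTCCGG on the other strand) or AAGATGGC (the YY1 motif), sites known from many genes of mitochondrial proteins. The windows lie at chr5:31613701-31614000, plus strand (Mrpl33), chr14:54426659-54426958, plus strand (Mrpl52), chr10:95501900-95502199, minus strand (Mrpl42) and chr13:99344536-99344835, plus strand (Mrps27), and each is written 5′ to 3′ along its gene. The Mrpl33 window begins inside the gene as GENCODE annotates it, since a longer form starts further upstream.
Mrpl33: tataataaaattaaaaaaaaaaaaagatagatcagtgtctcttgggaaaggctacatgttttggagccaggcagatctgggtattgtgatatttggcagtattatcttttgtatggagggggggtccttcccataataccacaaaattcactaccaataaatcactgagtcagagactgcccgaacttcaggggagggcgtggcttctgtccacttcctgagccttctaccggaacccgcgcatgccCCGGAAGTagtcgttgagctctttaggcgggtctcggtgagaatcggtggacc
Mrpl52: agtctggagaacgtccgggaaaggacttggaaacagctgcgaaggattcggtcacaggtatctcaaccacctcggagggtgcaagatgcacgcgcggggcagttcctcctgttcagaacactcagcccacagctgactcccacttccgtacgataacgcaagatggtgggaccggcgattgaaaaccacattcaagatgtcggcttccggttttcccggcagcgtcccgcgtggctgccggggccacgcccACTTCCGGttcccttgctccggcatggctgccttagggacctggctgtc
Mrpl42: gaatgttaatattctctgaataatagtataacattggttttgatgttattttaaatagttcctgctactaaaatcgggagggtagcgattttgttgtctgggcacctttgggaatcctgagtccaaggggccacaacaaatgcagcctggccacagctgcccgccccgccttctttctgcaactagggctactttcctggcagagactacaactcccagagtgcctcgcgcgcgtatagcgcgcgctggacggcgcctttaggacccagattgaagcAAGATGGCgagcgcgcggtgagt
Mrps27: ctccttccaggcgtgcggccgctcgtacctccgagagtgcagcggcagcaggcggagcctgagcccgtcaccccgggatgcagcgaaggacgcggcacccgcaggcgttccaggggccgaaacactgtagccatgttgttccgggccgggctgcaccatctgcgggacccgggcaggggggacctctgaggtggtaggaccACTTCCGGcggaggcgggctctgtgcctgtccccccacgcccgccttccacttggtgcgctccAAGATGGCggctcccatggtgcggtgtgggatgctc

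The ETS match began 3 bases before the start in Mrpl33, 1 base after it in Mrpl52 and 49 bases before it in Mrps27. The YY1 match began 27 bases after the start in Mrpl42 and 14 bases after it in Mrps27. The windows of Mrpl40, Mrpl57 and Mrps10, which also did not pass, held neither motif. Nor did those of Mrpl55, Mrpl46, Mrpl1 and Mrpl45, which were among the largest falls. Over the set, 69 of the 78 genes had a window, 75 windows in all. CCGGAAGT was in 12 of these windows (16.0%, beside 7.17% of the windows of genes tested and 3.89% of all 32851 windows), and AAGATGGC was in 12 as well (16.0%, beside 4.01% and 2.75%). CGCATGCG, the core of the NRF1 motif, was in 7 (9.33%, beside 3.46% and 1.87%). CACGTG, the E-box of Myc and its relatives, was in 7 windows too, with 9.56% of tested and 7.15% of all windows holding it. Its 7 windows belonged to 5 genes, since overlapping windows of Mrpl2 held the same site. TCAAGGTCA, an estrogen-related receptor motif, was in none of the 75 (0.276% and 0.423%). Of 72 windows of cytosolic ribosomal protein genes, 15.3% held CCGGAAGT, 9.72% AAGATGGC, 4.17% CGCATGCG, 11.1% CACGTG and 0% TCAAGGTCA. For 66 windows of nuclear respiratory chain genes the shares were 6.06%, 15.2%, 10.6%, 10.6% and 3.03%, in that order. No motif contains another, and CGCATGCG and CACGTG read the same on both strands. Members with the ETS motif had a median log2 fold change of −0.43 (12 genes) and those without it −0.62 (57). For YY1 the medians were −0.53 (12 genes) and −0.61 (57), and for NRF1 −0.54 (7) and −0.61 (62).

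Taken by symbol, the genes of both subunits were lower, where 21.1% of all genes tested fell. Of the large-subunit genes 44 of 49 fell, with a median of −0.72 and a range of −1.09 to −0.02. Of the small-subunit genes 28 of 29 fell, with a median of −0.56 and a range of −1.26 to −0.07. The ranges of the subunits covered one another almost entirely. The summed CPM of the large-subunit genes was 2708 ± 76.8 in WT and 1699 ± 115 in Mst1-TG, and that of the small-subunit genes 1295 ± 50.0 in WT and 851 ± 41.9 in Mst1-TG. Their ratio, large over small, was 2.07, 2.06, 2.11 and 2.13 in WT 1 to 4 and 2.03, 1.92, 1.99 and 2.04 in Mst1-TG 1 to 4. All 4 Mst1-TG ratios were below the lowest WT ratio, although the Mst1-TG mean was 0.954 of the WT mean.

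The symbols do not follow the structure of the ribosome in every case. Mrps30 and Mrps18a, despite their names, sit in the large subunit, and Mrps36 is a subunit of the 2-oxoglutarate dehydrogenase complex rather than of the ribosome. Mrps30 went from 36.6 to 24.9 CPM (−0.56 ± 0.07, edgeR adjusted p = 3.3e-05) and Mrps36 from 56.9 to 36.1 CPM (−0.65 ± 0.09, edgeR adjusted p = 7.2e-05), so both fell. With genes placed by structure, 46 of 51 large-subunit genes fell (median −0.66) and 25 of 26 small-subunit genes did (median −0.58). Per kilobase of transcript, the ratio of summed levels by structure was 2.61 ± 0.0441 in WT and 2.52 ± 0.0553 in Mst1-TG, and here the libraries of the groups overlapped.

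Mammals carry 3 relatives of bacterial S18, each at a place of its own in the ribosome: Mrps18a in the large subunit, Mrps18b and Mrps18c in the small. Mrps18a stood at 48.0, 53.3, 51.5 and 49.1 CPM in WT and 35.5, 38.4, 35.2 and 39.6 CPM in Mst1-TG. The groups were separate (−0.44 ± 0.07, edgeR adjusted p = 1.2e-04). The change of Mrps18b was −0.46 ± 0.08 (edgeR adjusted p = 2.5e-04) and that of Mrps18c −0.48 ± 0.09 (edgeR adjusted p = 8.4e-04). The 3 paralogues thus differed from one another by less than the standard error of any of them.

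In the stalk that binds translation factors, 2 proteins that touch each other differed in their mRNAs. Mrpl12 forms the mobile arms of the stalk. Its level was 181, 209, 191 and 194 CPM in WT and 108, 89.6, 94.8 and 109.9 CPM in Mst1-TG. The groups lay far apart (−0.95 ± 0.08, edgeR adjusted p = 6.3e-07). Mrpl10, the base to which those arms attach, fell from 52.4 to 41.6 CPM (−0.34 ± 0.07, edgeR adjusted p = 0.0012). Mrpl11, also of the stalk, lay between them (−0.63 ± 0.10, edgeR adjusted p = 2.8e-04). The ratio of Mrpl12 to Mrpl10 counts in a library was 3.71 ± 0.274 in WT and 2.42 ± 0.147 in Mst1-TG. The groups of ratios did not overlap, and the pair was chosen for this comparison after its values were seen.

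By other regions, 7 of 7 genes of proteins around the exit tunnel fell (median −0.58), where 21.1% of all genes tested did. So did 7 of 8 of the central protuberance (median −0.76), all but Mrpl40. The protuberance thus held some of the largest falls (Mrpl55, Mrpl46) and a gene that did not pass. It also holds Mrpl58, a peptidyl-tRNA hydrolase that frees stalled ribosomes as well as forming part of the large subunit, which went from 47.2 to 28.4 CPM (−0.73 ± 0.08, edgeR adjusted p = 5.0e-06). Mrpl27, also of the protuberance, passed (edgeR adjusted p = 0.0093) although its WT 4 library, at 27.4 CPM, lay below Mst1-TG 4 at 27.8.

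The set was also divided by the ancestry of the protein, and most genes of each group fell, where 21.1% of all genes tested did. Genes whose protein is kept in all ribosomes fell in 26 of 27 cases with a median of −0.66, those shared only with bacteria in 18 of 19 with a median of −0.54, and those specific to mitochondria in 27 of 31 with a median of −0.56. The mitochondria-specific group held both the largest falls (Mrps35, Mrpl42, Mrps27) and 4 of the 6 genes that did not pass. All 16 large-subunit genes kept in every ribosome fell (median −0.77), with a range of −0.97 to −0.31.

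Levels in the normal ventricle differed widely between members. Per kilobase of transcript, WT levels ran from 5.61 (Mrpl19) to 302 CPM per kb (Mrpl42), a ratio of 53.8, with a median of 32.6. After Mrpl42 the highest levels per length were those of Mrpl30 (172) and Mrpl12 (147) in the large subunit, and of Mrps21 (152), Mrps23 (93.7) and Mrps36 (89.5) among the Mrps genes. The lowest were Mrpl19, Mrpl32 (6.80) and Mrpl47 (7.30) in the large subunit and Mrps25 (7.13), Mrps26 (9.05) and Mrps5 (9.10) in the small. Most of these proteins are present once in each ribosome. The length used is the median over a gene's annotated coding transcripts, and a gene with long annotated forms scores lower for it.

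Members with high and with low WT levels were found among both the large and the small falls. Across the 78 genes, the log2 fold change and the log2 WT level per kilobase had a Pearson r of −0.07 and a Spearman rho of −0.08, given as a description, since all genes share the same 8 libraries. Among the highest genes, the log2 fold change was −0.89 ± 0.07 for Mrpl30, −0.64 ± 0.06 for Mrps21 and −0.42 ± 0.05 for Mrps23. Mrpl33, at 129 CPM per kb the fifth highest, did not pass. The low genes Mrpl19 (−0.86 ± 0.08), Mrpl47 (−0.85 ± 0.09), Mrps25 (−0.62 ± 0.07) and Mrps5 (−0.63 ± 0.07) fell, as did Mrpl32 (−0.54 ± 0.12) and Mrps26 (−0.33 ± 0.07). Against CPM without the length, r was −0.36 and rho −0.39.

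**Figure D3:**
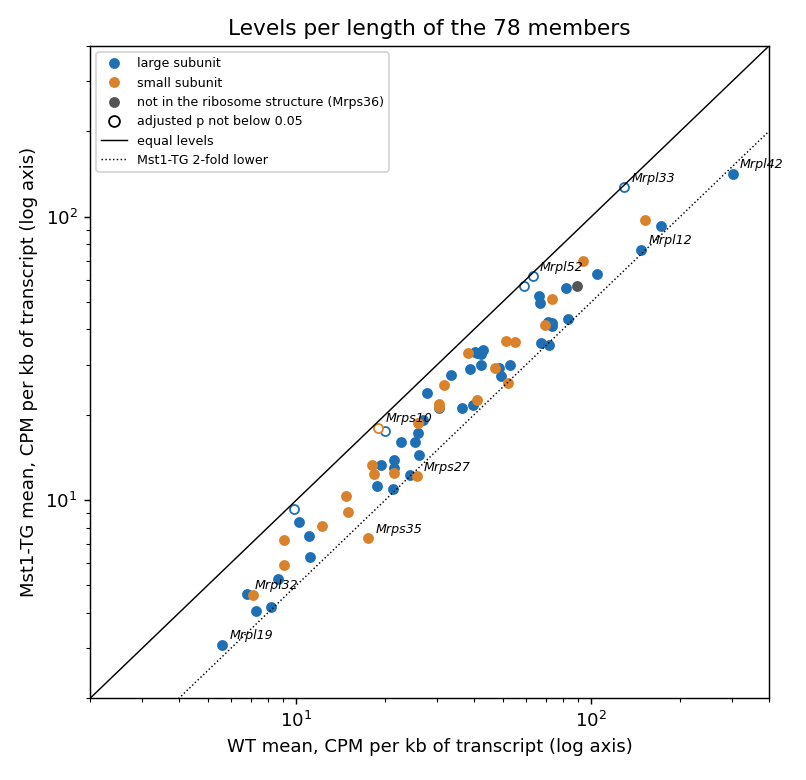
Level per kilobase of transcript in Mst1-TG against WT for the 78 genes, both on log axes, as group means, with a line of equality and a line at 2-fold lower. Most points lie between the lines over the whole range from 5.61 to 302 CPM per kb, and Mrpl33, at 129, lies on the line of equality.

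Proteins of the mitochondrial ribosome that carry other symbols moved with the set. All 5 listed fell (21.1% of all genes tested did), with a median of −0.53. Ptcd3, which is the small-subunit protein also called Mrps39, went from 99.2 to 43.8 CPM (−1.18 ± 0.07, edgeR adjusted p = 5.1e-08), and Gadd45gip1, the large-subunit protein also called Mrpl59, changed by −0.94 ± 0.08. Of the other small-subunit proteins, the GTP-binding Dap3 changed by −0.47 ± 0.06, Chchd1 by −0.53 ± 0.09 and Aurkaip1 by −0.44 ± 0.06.

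Most factors that work with the ribosome were lower as well, where 21.1% of all genes tested fell and 21.2% rose. Of 17 translation factors 16 fell, none rose, and the median was −0.68. Among them were Pdf, which removes the formyl group from new chains (−0.78 ± 0.06), Metap1d, which then removes the methionine (−0.92 ± 0.09), Taco1, a translational activator of the cytochrome oxidase subunit encoded by mt-Co1 (−1.07 ± 0.09), and Oxa1l, which inserts new chains into the inner membrane (−0.85 ± 0.07). Mtfmt, which puts the formyl group on the initiator tRNA, had a change of −0.25 ± 0.12 and did not pass (edgeR adjusted p = 0.11). Of 29 assembly factors 22 fell, none rose and 7 did not pass (median −0.53). Mrm3, a methyltransferase of the large ribosomal RNA, had the smallest p of them (−1.31 ± 0.12, edgeR adjusted p = 1.4e-06), with the assembly GTPase Mtg1 (−0.79 ± 0.09), Fastkd2 (−0.91 ± 0.11), which binds the large ribosomal RNA, and Malsu1 (−0.71 ± 0.08), which keeps an unfinished large subunit from joining the small one.

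Of 20 other factors of mitochondrial gene expression and its nuclear regulators, 14 fell, 1 rose and 5 did not pass. Among all genes tested 21.1% fell and 21.2% rose. Lrpprc, which stabilises mitochondrial mRNAs, changed by −1.06 ± 0.09, Fastk by −0.95 ± 0.07, Fastkd1 by −1.07 ± 0.10 and the nuclear receptor Esrra by −0.61 ± 0.07. Myc rose from 5.28 to 11.9 CPM (1.18 ± 0.16, edgeR adjusted p = 4.4e-05). Myc and Esrra bind the E-box and the estrogen-related receptor motif named above. Among genes of factors that bind the other 3 motifs, Nrf1 was at 0.09 ± 0.08 and did not pass (edgeR adjusted p = 0.41). Gabpa, at −0.15 ± 0.06 (edgeR adjusted p = 0.084), and Yy1, at −0.04 ± 0.07 (edgeR adjusted p = 0.67), did not pass either. Other factors that bind these motifs are not given here. These are mRNA levels, and a role of any of these factors in the falls was not tested.

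The ribosomal RNAs of the mitochondrial ribosome, mt-Rnr1 and mt-Rnr2, were lower too, with 1452 ± 56.0 against 557 ± 56.9 CPM for mt-Rnr1 and 3885 ± 259.7 against 1183 ± 151 CPM for mt-Rnr2 (WT first). Ribosomal RNA was depleted from these libraries, so the values are what remained, and a difference in depletion between the groups was not tested.

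The nuclear genes of the respiratory chain, whose products assemble with those made on the mitochondrial ribosome, had a lower median than the 78. All 74 of those listed fell (21.1% of all genes tested did), with a median of −1.02. Of the 74, 42 fell by at least 2-fold (4.6% of all genes did). Their summed CPM over that of the 78 genes was 11.7, 10.8, 11.0 and 10.7 in WT 1 to 4 and 8.09, 8.97, 8.25 and 8.39 in Mst1-TG 1 to 4. Every Mst1-TG ratio was below every WT ratio.

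With TMM scaling, most genes of the cytosolic ribosome did not pass the test. Of 78 tested cytosolic ribosomal protein genes 6 fell, 4 rose and 68 did not pass, where 21.1% of all genes tested fell and 21.2% rose. The median of the cytosolic genes was −0.01, which under other processing lay on either side of 0. With libraries scaled by their totals alone 53 of them rose and 1 fell (median 0.28), where 48.4% of all genes rose and 10.4% fell. Without Mst1-TG 4, 2 of the cytosolic genes rose and 10 fell. Among them Rpl3l, the form of Rpl3 found in striated muscle, fell from 103 to 15.4 CPM (−2.74 ± 0.15), and Rpl3 itself rose (0.34 ± 0.07, edgeR adjusted p = 0.0022). Cytosolic over mitochondrial ribosomal protein mRNA, as a ratio of summed CPM, was 5.15, 4.91, 5.26 and 5.56 in WT and 7.52, 7.33, 8.83 and 8.42 in Mst1-TG. The groups did not overlap, with all Mst1-TG ratios the higher.

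**Figure D4:**
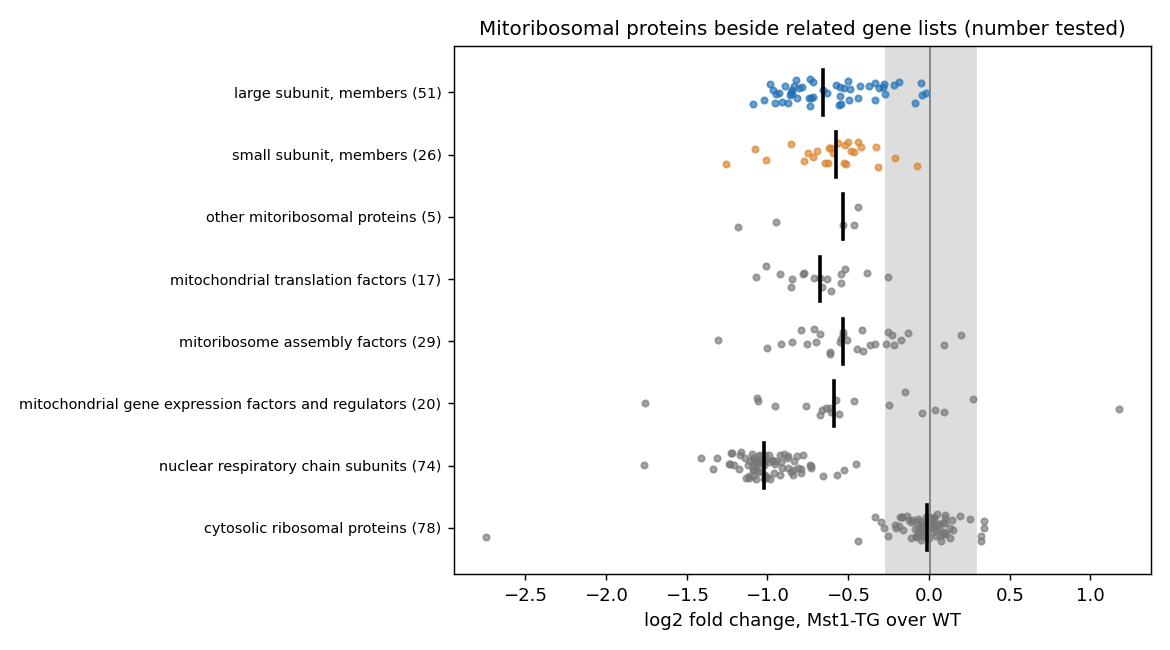
Log2 fold change (Mst1-TG over WT) of the mitoribosomal genes, split into large and small subunit by structure, and of the genes tested in the lists beside them. Mrps36, in neither subunit, is not drawn. Each gene is a dot, with a black bar at each list's median. The grey line and band are the median and interquartile range of all genes tested. The medians of the large (−0.66) and small subunit (−0.58) lie between those of the nuclear respiratory chain (−1.02) and the cytosolic ribosomal proteins (−0.01).

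The 78 genes lie on 17 chromosomes, many of them close to another gene's start. A protein-coding gene on the opposite strand starts head to head within 1000 bases of 18 of the 78 (23.1%), beside 9.60% of 13279 tested protein-coding genes. Of these partners 17 were tested, 5 fell, none rose, and their median was −0.17. Among all genes tested 21.1% fell and 21.2% rose. In 3 pairs, picked after their values were seen, the partners stood as follows. Mrps27 (−1.07 ± 0.11) starts 81 bases from Ptcd2, which encodes a mitochondrial RNA-binding protein and had a log2 fold change of −0.69. Mrps12 (−0.21 ± 0.07), whose edgeR adjusted p of 0.031 did not hold when some single libraries were left out, starts 172 bases from Sars2, the mitochondrial seryl-tRNA synthetase, at −0.78. Mrpl54, which did not pass, starts 26 bases from Apba3, which fell (−0.48, edgeR adjusted p = 7.2e-05).

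Mrps11 (chr7:78783119-78792989, plus strand) and Mrpl46 (chr7:78775236-78783531, minus strand) are both members and overlap at their starts. Both fell, Mrpl46 with a log2 fold change of −0.98 ± 0.09 and Mrps11 with −0.44 ± 0.09. The ratio of their counts was 1.44 ± 0.150 in WT and 0.990 ± 0.103 in Mst1-TG. The library kit keeps strand, but the strand setting of the counting is unknown here, so reads in the overlap may have been shared. Exons of 33 members overlap those of another annotated gene, 28 of them on the opposite strand. Those of Mrpl47 overlap Actl6a and Ndufb5 on the opposite strand, the higher of which had 11.9 times its counts. Others that overlap a gene of more counts on the opposite strand included Mrpl36 (Ndufs6, 6.14 times), Mrpl48 (Rab6a, 2.56), Mrpl14 (Tmem63b, 2.28) and Mrpl18 (Tcp1, 1.91). On the same strand, Mrps24 overlaps Urgcp, which had 1.26 times its counts. The levels and falls of Mrpl47 and of these members carry the same uncertainty.

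Mrpl23 is the member whose level is least certain. Its pseudogene Mrpl23-ps1 matches it at 100% over 540 bases and held more of the counts, with a mean of 51.2 ± 1.08 CPM in WT against 32.8 ± 3.70 CPM in Mst1-TG, than Mrpl23 itself, with 7.71 ± 0.320 CPM against 4.35 ± 0.913 CPM. Which of the copies the reads came from cannot be told apart. The fall was present in Mrpl23 (−0.83 ± 0.15, edgeR adjusted p = 5.5e-04), in the pseudogene (−0.64 ± 0.08) and in their summed counts (−0.66 ± 0.08). Pseudogenes with at least 95% identity over 300 bases exist for 18 of the 78, and Mrpl23 was the only one of them whose pseudogenes held 10% or more of its counts.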

How the data were processed

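The measurements are RNA-seq counts from 4 Mst1-TG and 4 WT left ventricles. Per the submitters' processing notes, reads were processed with bcl2fastq 2.19.1.403 and kallisto 0.46.0, a program for pseudoalignment to transcripts. The deposited values are estimated counts per gene in 1 table, with no scaling for depth by the authors. Its values are whole numbers, so rounding changed nothing. No source used here gives the genome build, annotation or strand setting.

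Groups came from sample titles, and no 2 replicates agreed within counting noise. Counts were fitted over all genes with edgeR 4.0.16 in R 4.3.3 (filterByExpr with minimum count 10 and minimum total 15, which left 15314 genes, then TMM factors, the robust quasi-likelihood F test and Benjamini-Hochberg adjustment at 0.05). The standard error is the log2 fold change divided by the root of F. At 21193536 to 23809256 counts per library its median was 0.111 over all genes. The code was tested on simulated data. Replicate numbers are shared by the groups, but same-numbered libraries did not deviate together (correlations of −0.142 to 0.0746), so no pairing was used. Lengths, overlaps and positions came from GENCODE M21 (GRCm38), where all 78 gene identifiers matched with their version. Placement in the ribosome came from general knowledge of its structure. Alternatives were DESeq2 1.42.0, limma 3.58.1 (voom), other scalings, no filter, a replicate block and leaving out each library.

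The members and lists were chosen with earlier results of these data known. Genes were named by rule: the 5 largest falls of each subunit, all members that did not pass, members with a particular place in the structure, the 3 highest and lowest per length of each subunit, and up to 4 genes of smallest p in each list beside those that passed in the opposite direction. Genes named outside it (such as Mrpl23, Mrpl27, Mrps11, Mrps12, Mtfmt and the neighbours) were chosen after their values were seen.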

Additional observations from a re-analysis of the deposited data

Results flagged for a closer look

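In 124 groups of 4 libraries, covering the named genes, 6 had a library set apart from the other 3 by Dixon's criterion at the 95% level, a criterion that chance alone meets in about 1 group in 20. Of the mitoribosomal genes only Mrpl54 was among them, with 41.0 CPM in WT 2 and 33.5 to 34.4 in the other WT libraries. WT 2 was also the high library for Mrm3 (21.5 CPM, the others 17.4 to 17.8), for Lrpprc (189, the others 157 to 160.5) and for Ndufs4, a complex I subunit (165, the others 149 to 151). Ndufa8, another complex I subunit, stood at 145 CPM in Mst1-TG 4 and at 131 to 132 in the other Mst1-TG libraries. Rpl10 stood at 188 CPM in WT 4 and at 179 to 181 in the other WT libraries.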

How the results depend on the processing

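Under 15 of the 16 alternatives 71 or 72 mitoribosomal genes fell and none rose. The gene lost was Mrps12, without the count filter and without any one of Mst1-TG 2, Mst1-TG 3, WT 1, WT 3 or WT 4. Library totals alone was the exception: 52 fell and 5 rose (4 Mrpl, 1 Mrps), the medians were −0.33 (all 78), −0.43 (Mrpl) and −0.28 (Mrps), and the median relative to all genes was −0.62. On that scale Mrpl40 was at 0.10, Mrpl57 at 0.20, Mrps10 at 0.21, Mrpl54 at 0.24, Mrpl52 at 0.25 and Mrpl33 at 0.26, 14 assembly factors fell and 2 rose, 5 regulators rose, 1 cytosolic ribosomal protein gene fell and 53 rose (median 0.28), and 1592 of all genes fell and 7409 rose. The 20 genes that no longer passed there included Mrpl10, Mrpl27, Mrpl32, Mrps11, Mrps12, Mrps18a, Mrps18b, Mrps18c and Mrps26. Without the count filter 2 regulators rose, and the cytosolic median was 0.00353. Leaving out single libraries, the Mrpl median ranged from −0.72 to −0.65, regulators called higher from 1 to 2, cytosolic genes called lower from 4 to 10 and higher from 2 to 4, the cytosolic median from −0.0694 to 0.0402, Mrpl54 from −0.10 to 0.0220, Mrpl52 from −0.0859 to 0.00619 and Mrpl33 from −0.0453 to 0.0118. With Mst1-TG 4 left out, 10 cytosolic genes fell, 2 rose, and 2 regulators rose. Of 34 named members 22 kept their direction and call under every alternative. With the replicate number as a block, 72 of the 78 fell with a median of −0.61. Adding the Mrpl23-ps1 counts to Mrpl23, an alternative chosen after seeing the data, gave −0.66 ± 0.08. Mrpl23, the gene of fewest counts, had a standard error of 0.15, beside a median of 0.08 over the 78.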
